A study of Mus musculus with 25 samples.

Results

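The genes described here are 10 imprinted genes, chosen by symbol, *H19*, *Igf2*, *Igf2r*, *Meg3*, *Rian*, *Dlk1*, *Cdkn1c*, *Ndn*, *Grb10* and *Peg3*, of 23116 genes in the RNA-seq table of hematopoietic stem cells with and without ZNF143. All 10 symbols were found in the table. ZNF143 is a zinc finger protein that binds promoters and is studied here for its part in the looping of promoters to enhancers by CTCF. The imprinted *H19*/*Igf2* locus is a classical example of a locus that CTCF insulates. The question that these genes address is whether the RNA of imprinted genes differed between the genotypes.

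HSLAM cells, the LSK+ CD150+ CD48- stem cell population, were sorted from bone marrow of male C57BL/6 mice of 8 to 12 weeks of age. The controls were *Znf143* f/f mice without Rosa26ERT2-Cre (3 libraries, called WT1 to WT3) and the deleted mice were *Znf143* f/f littermates with Rosa26ERT2-Cre, called *Znf143* -/- (3 libraries, KO1 to KO3). Both genotypes were given tamoxifen (labelled middle dosage) and taken after 10 days, so that tamoxifen itself is shared by all libraries. The inducible Cre is driven from a ubiquitous promoter and also deletes the gene in cells other than blood cells. The labels call the deleted genotype a CTCF knockout, which the expression values do not bear out, as given below.

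In an imprinted gene, only the allele from 1 parent is expressed, and the choice is set by DNA methylation laid down in the germ line at a control region. In the *H19*/*Igf2* locus, CTCF binds the unmethylated maternal control region and keeps *Igf2* from its enhancers, so that the maternal allele gives *H19* and the paternal allele gives *Igf2*. In the *Dlk1*/*Dio3* locus, the paternal allele gives the protein-coding genes *Dlk1*, *Rtl1* and *Dio3*, and the maternal allele gives the non-coding RNAs *Meg3*, *Rian* and *Mirg*, which host microRNAs and small nucleolar RNAs. Several imprinted genes are known in long-term stem cells of the bone marrow for restraining growth and for keeping the cells quiescent, among them *H19*, *Cdkn1c* and *Ndn*. RNA levels from sorted cells of both alleles together do not tell which allele an RNA came from.

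Of the 10 genes, those of the *Dlk1*/*Dio3* locus differed most. *Dlk1* was 5.53-fold higher in *Znf143* -/- cells, *Rian* 3.55-fold and *Meg3* 2.86-fold, and in each of them the lowest *Znf143* -/- library lay above the highest *Znf143* f/f library. *Dlk1* was the only gene of the 7 tested that passed the test over all genes. *Cdkn1c*, *Ndn* and *Grb10*, the most abundant of the 10, differed by at most 1.38-fold, and *Igf2* and *Peg3* had hardly any fragments in either genotype.

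Levels are given as rescaled FPKM, which are fragments per kilobase of gene with depth divided out, after the libraries were brought to 1 scale (median-of-ratios size factors of 0.824 to 1.25). This scale was used because the deposited FPKM of KO3 carry the divisor of KO2, 48378188, whereas 57895793 fragments lay on the genes of KO3. The libraries held 38643255 to 57895793 fragments on genes. Differences were tested with limma on log2(rescaled FPKM + 0.1) in genes with a mean of at least 0.1, and p-values were adjusted by the Benjamini-Hochberg method over 19206 genes. Of these, 1161 genes (6.04%) had an adjusted p under 0.05, 581 (3.03%) higher and 580 (3.02%) lower in *Znf143* -/- libraries. With FPKM as deposited, which shift the median log2 difference of all genes to 0.11, 529 were higher and 304 lower. A difference of log2(rescaled FPKM + 0.1) understates the change of a gene with a low level.

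The libraries of a genotype were not equally far apart. Over 12433 genes with at least 600 fragments in all, the median squared difference between WT1 and WT3 was 3.37 times its sampling noise, and that between KO2 and KO3 was 4.05 times. The other 4 pairs of libraries of 1 genotype differed by 35.8 to 47.2 times the sampling noise. WT2 and KO1 therefore stood apart, and the labels do not say whether WT1 and WT3, or KO2 and KO3, share an animal, a culture or a preparation. Adjusted p-values treat all 3 libraries of a genotype as separate. If 2 of them share a source, the fit counts more separate units than there are, and its p-values may be too small. With WT1 and WT3 averaged, and KO2 and KO3 averaged, 47 of 19238 genes were called, and with WT2 and KO1 both left out, which keeps 2 nearly alike libraries of each genotype, 8100 of 19027 (42.6%) were called. These 2 alternatives were chosen after seeing the data, and p-values of the fit without WT2 and KO1 may measure technical spread only.

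*Zfp143*, the mouse gene of ZNF143, had 2.98, 4.30 and 3.55 rescaled FPKM in WT1 to WT3, and 0.151, 0.289 and 0.262 in KO1 to KO3. It was 15.4-fold lower in *Znf143* -/- libraries (log2 difference -3.48 ± 0.24 SE, adjusted p = 0.000993). The loxP sites flank its first exon, so that fragments can still come from the other exons. *Ctcf* had 29.4, 31.6 and 29.3 against 30.8, 26.3 and 25.7 rescaled FPKM (log2 difference -0.13 ± 0.10 SE, adjusted p = 0.468). The genotypes overlapped in *Ctcf*.

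In the *Dlk1*/*Dio3* locus, *Dlk1*, *Meg3* and *Rian* lie on the plus strand of chromosome 12 (GRCm38, positions from GENCODE vM21). *Dlk1* (ENSMUSG00000040856.17, chr12:109452823-109463336) has 6 exonic blocks and no overlapping gene. *Meg3* (ENSMUSG00000021268.17, chr12:109541001-109571726) starts 88.2 kb from the start of *Dlk1*, and *Rian* (ENSMUSG00000097451.10, chr12:109603940-109661716) starts 151 kb from it. In *Meg3*, 8.29% of the exonic bases are shared with another annotated gene, and in *Rian* 3.42%. The 250 bases before the RefSeq start of each (GRCm38.p6), on the strand of the gene, are printed because these 3 genes differed most, at chr12:109452573-109452822 for *Dlk1*, chr12:109540746-109540995 for the first *Meg3* start and chr12:109603695-109603944 for *Rian*. Capitals mark CG dinucleotides, the sites of DNA methylation, in *Dlk1* and *Meg3*, and the letters CCCAGNATG, part of the ZNF143 motif, in *Rian*.
Dlk1: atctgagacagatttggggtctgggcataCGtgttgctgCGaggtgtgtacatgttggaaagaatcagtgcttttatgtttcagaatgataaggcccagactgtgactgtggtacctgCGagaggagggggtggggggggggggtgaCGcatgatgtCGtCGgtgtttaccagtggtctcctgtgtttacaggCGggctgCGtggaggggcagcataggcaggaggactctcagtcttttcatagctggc
Meg3: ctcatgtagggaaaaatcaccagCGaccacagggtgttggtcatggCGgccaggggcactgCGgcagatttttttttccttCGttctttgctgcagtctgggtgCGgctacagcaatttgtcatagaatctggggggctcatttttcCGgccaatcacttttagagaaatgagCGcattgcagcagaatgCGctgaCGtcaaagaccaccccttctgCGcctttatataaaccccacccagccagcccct
Rian: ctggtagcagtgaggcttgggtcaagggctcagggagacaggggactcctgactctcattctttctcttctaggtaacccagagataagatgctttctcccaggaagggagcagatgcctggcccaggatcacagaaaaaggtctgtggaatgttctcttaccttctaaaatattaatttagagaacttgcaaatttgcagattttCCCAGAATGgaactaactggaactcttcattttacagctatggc

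The *Dlk1* window holds 8 CG dinucleotides, the first *Meg3* window 10 and the *Rian* window 0, against a median of 6 over 32851 promoter windows of the same length. The window of the other *Meg3* start holds 0. On either strand, ACTACAA and CCCAGNATG, parts of the ZNF143 motif, occur in 2.81% and 1.61% of all windows, and GGNGGCAG, the core of the CTCF motif, in 9.93%. None of the 3 was found in the windows of *Dlk1* and *Meg3*. In the *Rian* window, CCCAGNATG was found and the other 2 were not. RefSeq promoters were listed for 8 of the 10 genes with 13 starts, and 1 more match, of GGNGGCAG, was found, at 1 of the 4 starts of *Igf2*. These matches are a description of the letters in the windows.

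*Dlk1* encodes a transmembrane protein related to Notch ligands that inhibits adipocyte differentiation. It had 0.611, 0.481 and 0.567 rescaled FPKM in WT1 to WT3, from 137, 138 and 146 fragments. In KO1 to KO3 it had 2.83, 3.21 and 3.14 rescaled FPKM, from 731, 920 and 1067 fragments. Every *Znf143* -/- library was thus far above every *Znf143* f/f library, and the lowest was 4.63-fold above the highest of the controls. The log2 difference was 2.28 ± 0.15 SE (95% interval 1.92 to 2.64, adjusted p = 0.000891 by limma). Of the 19206 genes, 113 had a higher log2 difference and 44 a smaller p. By the two-sided exact permutation test, p was 0.1, which is the lowest value that 3 against 3 can give.

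The difference in *Dlk1* was of the same size in the libraries that stood apart, where KO1 was 5.88-fold above WT2. *Dlk1* kept an adjusted p under 0.05 with each library left out in turn (0.00241 to 0.0135). With WT1 and WT3 averaged and KO2 and KO3 averaged, its log2 difference was 2.29 and its adjusted p rose to 0.062. Of the genes named here that passed the test, *Zfp143* and *Flt3* kept the call in that fit.

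*Meg3*, a non-coding RNA of the maternal allele, had 0.123, 0.158 and 0.124 rescaled FPKM in WT1 to WT3 (88, 145 and 102 fragments). It had 0.439, 0.372 and 0.345 in KO1 to KO3 (363, 341 and 375 fragments). The groups did not overlap, and the log2 difference was 1.05 ± 0.23 SE (95% interval 0.49 to 1.60). The unadjusted p of 0.00312 became an adjusted p of 0.0505 by limma, which just missed the threshold. With limma's voom on the recovered fragments, which weights genes by their depth and called 1407 genes (7.33%), the log2 difference of *Meg3* was 1.49 ± 0.20 SE and its adjusted p was 0.00675. Without WT2, the adjusted p was 0.0335. Over all 16 alternatives that kept the gene, it lay between 0.00675 and 0.510 and was under 0.05 in 7.

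*Rian*, which hosts small nucleolar RNAs, was at 0.0457, 0.0238 and 0.0518 rescaled FPKM in WT1 to WT3 (33, 22 and 43 fragments). It reached 0.148, 0.166 and 0.118 in KO1 to KO3 (123, 153 and 129 fragments). All 3 *Znf143* -/- libraries were above all 3 controls. Its mean over the 6 libraries, 0.092, lay under the minimum for the test. Without that minimum, limma gave a log2 difference of 0.80 ± 0.19 SE and an adjusted p of 0.0673 among 23116 genes.

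*Dlk1*, *Meg3* and *Rian* are not all expressed from the same parental allele, and their levels were compared as ratios within each library. The ratio of *Dlk1* to *Meg3* in rescaled FPKM was 4.98, 3.04 and 4.58 in WT1 to WT3 and 6.44, 8.63 and 9.10 in KO1 to KO3. The ratios did not overlap (means 4.20 ± 1.02 and 8.05 ± 1.42, SD, n = 3, two-sided exact permutation p = 0.1, the smallest that the design allows). The ratio of *Meg3* to *Rian*, both of the maternal allele, was 2.69, 6.64 and 2.39 in WT1 to WT3 and 2.97, 2.25 and 2.93 in KO1 to KO3, which overlapped (exact permutation p = 0.8). Of the imprinted genes tested, *Meg3* was the most like *Dlk1* and *Dlk1* the most like *Meg3*, with a Pearson r of 0.96 between their log2 levels over the 6 libraries, which include both genotypes.

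Further listed imprinted genes of the locus had few fragments. *Mirg*, the most distal non-coding RNA of the cluster, had 0, 3 and 0 fragments in WT1 to WT3 and 22, 9 and 13 in KO1 to KO3. *Rtl1*, a retrotransposon-derived gene of the paternal allele, had 0 fragments in each control library and 6, 2 and 2 in KO1 to KO3. Both are too low for the test. *Rtl1* lies on the minus strand, and the libraries were not made strand-specific, so that its RNA and RNA of the opposite strand cannot be told apart. Not all RNAs annotated in the cluster were higher. *Gm37899*, between *Rian* and *Mirg* and counted below with the other genes, had 93, 25 and 87 fragments in WT1 to WT3. It had 109, 29 and 39 in KO1 to KO3 (log2 difference -0.26 ± 0.48 SE, adjusted p = 0.793 by limma). *Gm26945*, which overlaps *Rian*, had 5, 0 and 5 against 3, 0 and 0 fragments, and *B830012L14Rik* had 5, 4 and 4 against 18, 6 and 17. *Gm27596*, which overlaps *Meg3* and is also counted below with the other genes, had 3, 0 and 2 against 2, 7 and 8 fragments (log2 difference 1.63 ± 0.89 SE, adjusted p = 0.319 by limma). *Dio3* was not analysed here.

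Of the other genes within 1000 kb of *Dlk1* and *Mirg*, a window chosen after values of the locus were seen, 21 were tested, with a median log2 difference of 0.10, and 2 were called, where 6.04% of all tested genes were. In 4 of the 21 all *Znf143* -/- libraries lay above the controls and in 4 below, against 15.4% and 15.3% of all tested genes. The 2 called genes were *Slc25a29* and *Gm35558*. *Slc25a29*, a mitochondrial carrier gene upstream of *Dlk1*, was lower (log2 difference -1.23 ± 0.17 SE, adjusted p = 0.0128). *Gm35558*, a non-coding gene downstream of the cluster, was higher (1.09 ± 0.18 SE, adjusted p = 0.0208). The calls of both were lost without WT1, WT3, KO2 or KO3 (adjusted p of 0.0539 to 0.0758 for *Slc25a29* and 0.0611 to 0.113 for *Gm35558*). *Begain*, the nearest gene before *Dlk1* in the table, had 0.506 ± 0.10 and 0.630 ± 0.351 rescaled FPKM (mean ± SD, n = 3, adjusted p = 0.889). *Wdr25* next to it had 1.41 ± 0.06 and 1.58 ± 0.06 (adjusted p = 0.532).

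**Figure D1:**
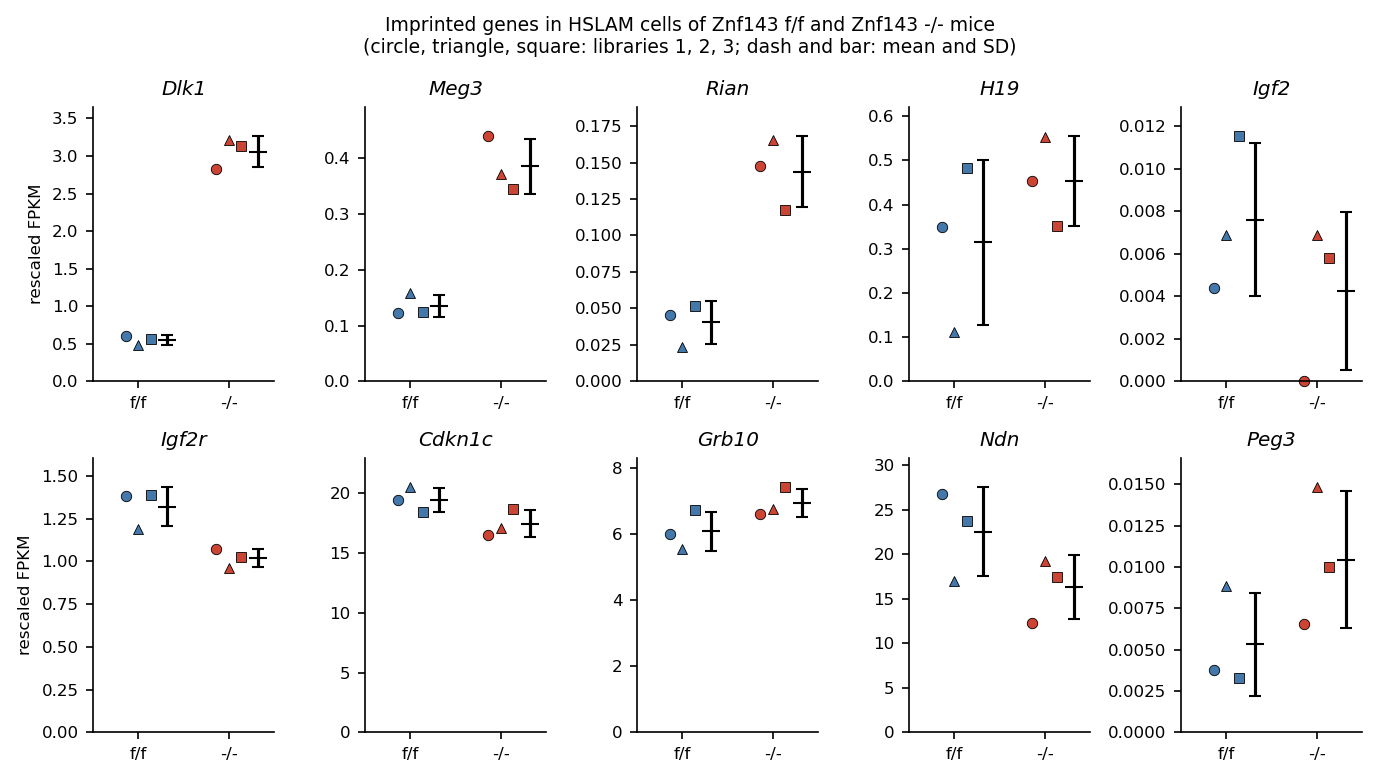
Rescaled FPKM (vertical axes, each from 0) of the 10 imprinted genes in each library of *Znf143* f/f (blue) and *Znf143* -/- (red) HSLAM cells, where circle, triangle and square are libraries 1, 2 and 3 and the black dash with its bar is the mean and SD of 3 libraries. In *Dlk1*, *Meg3* and *Rian* all *Znf143* -/- libraries lie above all *Znf143* f/f libraries, and in *Igf2r* all lie below.

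**Figure D2:**
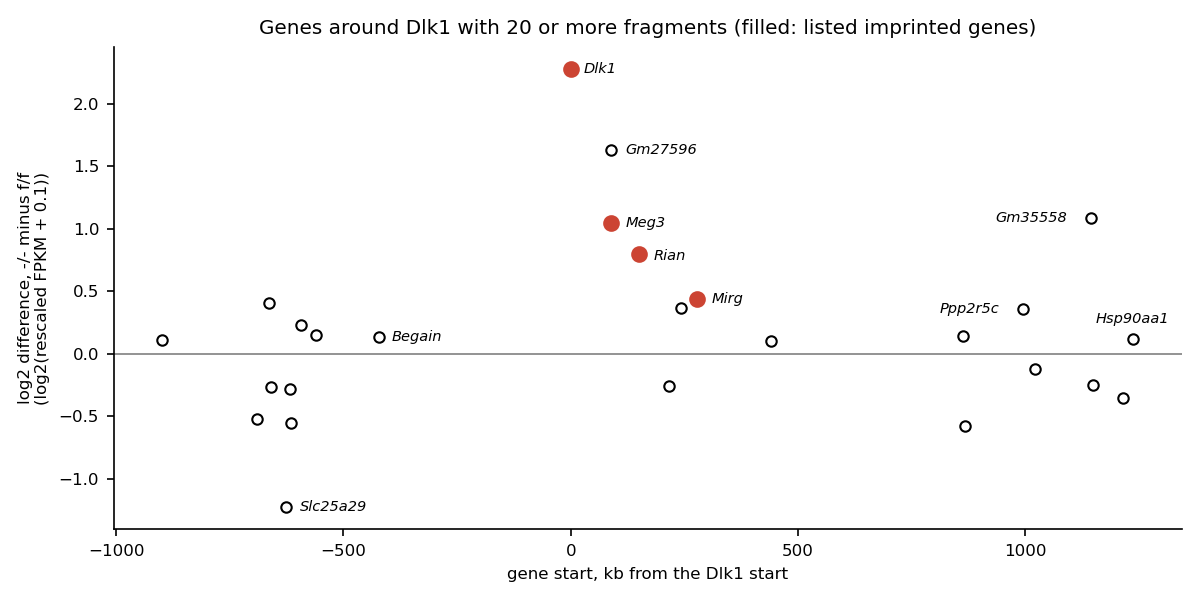
Difference of log2(rescaled FPKM + 0.1), *Znf143* -/- minus *Znf143* f/f (vertical axis), of genes with 20 or more fragments around *Dlk1*, against the distance of their start from the start of *Dlk1* in kb (horizontal axis). The filled points are the imprinted genes *Dlk1*, *Meg3*, *Rian* and *Mirg*, at 2.28, 1.05, 0.80 and 0.44. The open points are the other genes, of which *Gm27596*, which overlaps *Meg3*, is highest at 1.63 and *Slc25a29* is lowest at -1.23.

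The *H19*/*Igf2* locus lies on chromosome 7, on the minus strand. *H19* (ENSMUSG00000000031.16, chr7:142575529-142578143), a non-coding RNA of the maternal allele that restrains growth, had 0.349, 0.112 and 0.482 rescaled FPKM in WT1 to WT3, from 34, 14 and 54 fragments. It had 0.454, 0.554 and 0.351 in KO1 to KO3, from 51, 69 and 52 fragments. WT2 was low and the other 5 libraries lay within 1 range, so that the genotypes overlapped. The log2 difference was 0.52 ± 0.41 SE (95% interval -0.45 to 1.49, adjusted p = 0.488), and without WT2 it was 0.10. The interval spans both directions, and no difference was detectable between these libraries.

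*Igf2* (ENSMUSG00000048583.16, chr7:142650766-142666816), the growth factor of the paternal allele, had 1, 2 and 3 fragments in WT1 to WT3 and 0, 2 and 2 in KO1 to KO3. Each library was at or under 3 fragments, taken as the smallest number told apart from 0, so that no fold is given. Of the exonic bases of *Igf2*, 64.5% are shared with other annotated genes, and fragments there may not be assigned. *Ins2* and *Mir675* of the same locus were not analysed here.

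*Igf2r* (ENSMUSG00000023830.14, chr17:12682406-12769664, minus strand) encodes the receptor that takes up IGF2 for degradation and is expressed from the maternal allele. It had 1.38, 1.19 and 1.39 rescaled FPKM in WT1 to WT3 and 1.07, 0.964 and 1.02 in KO1 to KO3. The groups did not overlap, and the mean was 1.30-fold higher in the controls. The log2 difference was -0.34 ± 0.15 SE (95% interval -0.70 to 0.01), which did not pass the test (adjusted p = 0.218, exact permutation p = 0.1). *Igf2r* was called in 1 of 17 alternatives, that without WT2 and KO1 (adjusted p = 0.0262), in which 42.6% of all genes were called, and its adjusted p was 0.823 with WT1 and WT3 averaged and KO2 and KO3 averaged. *Airn*, the antisense RNA of the paternal allele that starts within *Igf2r*, had 1.09 ± 0.36 and 0.520 ± 0.038 rescaled FPKM (SD, n = 3, adjusted p = 0.106). The libraries were not made strand-specific, so that RNA of *Airn* and of *Igf2r* introns cannot be told apart, whereas no exonic base is shared between them in the annotation.

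Of 16 genes of the insulin-like growth factor axis, 12 were in the table and 11 were tested. None of these was called higher and 1 was lower, *Igfbp5*, a secreted binding protein of insulin-like growth factors (0.282 ± 0.068 and 0.0430 ± 0.0247 rescaled FPKM, SD, n = 3, log2 difference -1.42 ± 0.30 SE, adjusted p = 0.0432). Its call was lost without WT1 (adjusted p = 0.152), WT3 (0.136), KO2 (0.122) or KO3 (0.163). *Igf1r*, the receptor of IGF1 and IGF2, had 4.55 ± 0.43 and 3.34 ± 0.35 rescaled FPKM (adjusted p = 0.0965).

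*Cdkn1c* (ENSMUSG00000037664.13, chr7:143458339-143461050, minus strand) encodes p57, a cyclin-dependent kinase inhibitor that keeps stem cells out of cycle. It had 19.4, 20.4 and 18.4 rescaled FPKM in WT1 to WT3 and 16.5, 17.1 and 18.7 in KO1 to KO3. KO3 lay within the range of the controls. The log2 difference was -0.16 ± 0.09 SE (95% interval -0.37 to 0.05, adjusted p = 0.329). It had 1536 to 2289 fragments per library. Of its exonic bases, 30.7% are shared with an annotated antisense gene.

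*Ndn* (ENSMUSG00000033585.5, chr7:62346569-62350262, plus strand) encodes necdin, a growth suppressor expressed from the paternal allele. It had 26.8, 17.0 and 23.7 rescaled FPKM in WT1 to WT3 and 12.3, 19.2 and 17.4 in KO1 to KO3. WT2 lay below KO2 and KO3, and KO1 was the lowest of all. The log2 difference was -0.46 ± 0.22 SE (95% interval -0.99 to 0.07, adjusted p = 0.263). *Ndn* was called in 1 of 17 alternatives, that without WT2 and KO1 (-0.46, adjusted p = 0.0117), in which 42.6% of all genes were called, and its adjusted p was 0.683 with WT1 and WT3 averaged and KO2 and KO3 averaged.

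*Grb10* (ENSMUSG00000020176.17, chr11:11930508-12038683, minus strand) encodes an adaptor that damps signalling of the insulin and IGF1 receptors. It had 5.99, 5.55 and 6.71 rescaled FPKM in WT1 to WT3 and 6.61, 6.76 and 7.41 in KO1 to KO3, where WT3 lay above KO1. The log2 difference was 0.19 ± 0.11 SE (95% interval -0.07 to 0.44, adjusted p = 0.347). *Peg3* (ENSMUSG00000002265.16, chr7:6703892-6730431, minus strand), a zinc finger gene of the paternal allele, had 2, 6 and 2 fragments in WT1 to WT3 and 4, 10 and 8 in KO1 to KO3 and was too low for the test.

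A list of 10 genes that are not imprinted held CDK inhibitors, D cyclins with their kinases, and *Hspa8*. All were tested, 2 were higher, 1 was lower and 7 were not called, where 6.04% of all tested genes were called. *Cdkn1a*, the p21 inhibitor that p53 induces, was 1.82-fold higher (16.7 ± 0.6 and 30.5 ± 1.2 rescaled FPKM, SD, n = 3, log2 difference 0.86 ± 0.08 SE, adjusted p = 0.00251). Its call was lost with WT1 and WT3 averaged and KO2 and KO3 averaged (adjusted p = 0.131). *Cdk6*, a kinase that drives exit from quiescence, was 1.58-fold higher (0.66 ± 0.14 SE, adjusted p = 0.0457). *Hspa8*, a chaperone that binds p57, was lower (-0.41 ± 0.08 SE, adjusted p = 0.0392). The calls of *Cdk6* and *Hspa8* were lost without WT1 (adjusted p = 0.0995 and 0.149), WT3 (0.134 and 0.177), KO2 (0.111 and 0.135) or KO3 (0.148 and 0.193), and that of *Cdk6* also without KO1 (0.0584). *Cdkn1b*, the p27 inhibitor closest in kind to p57, had 2.48 ± 0.30 and 1.59 ± 0.33 rescaled FPKM (adjusted p = 0.101).

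Over the 10 imprinted genes, 7 were tested, 1 was called higher and none lower by limma, and the unadjusted p was under 0.05 in 2, *Dlk1* and *Meg3*. Of all tested genes, 6.04% were called and 24.2% had an unadjusted p under 0.05. The genotypes did not overlap in 3 of the 7, *Dlk1* and *Meg3* higher and *Igf2r* lower, against 30.8% of all tested genes, 15.4% higher and 15.3% lower. The median log2 difference of the 7 was 0.19, and that of all tested genes was 0.01. By level, the order of the 10 in the controls was *Ndn*, *Cdkn1c*, *Grb10*, *Igf2r*, *Dlk1*, *H19*, *Meg3*, *Rian*, *Igf2* and *Peg3*. *Ndn* and *Cdkn1c* overlapped in that order, as did *Dlk1* with *H19*, *H19* with *Meg3*, and *Igf2* with *Peg3*. In *Znf143* -/- libraries *Dlk1* stood above *Igf2r*, with no overlap between these genes in either genotype.

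**Figure D3:**
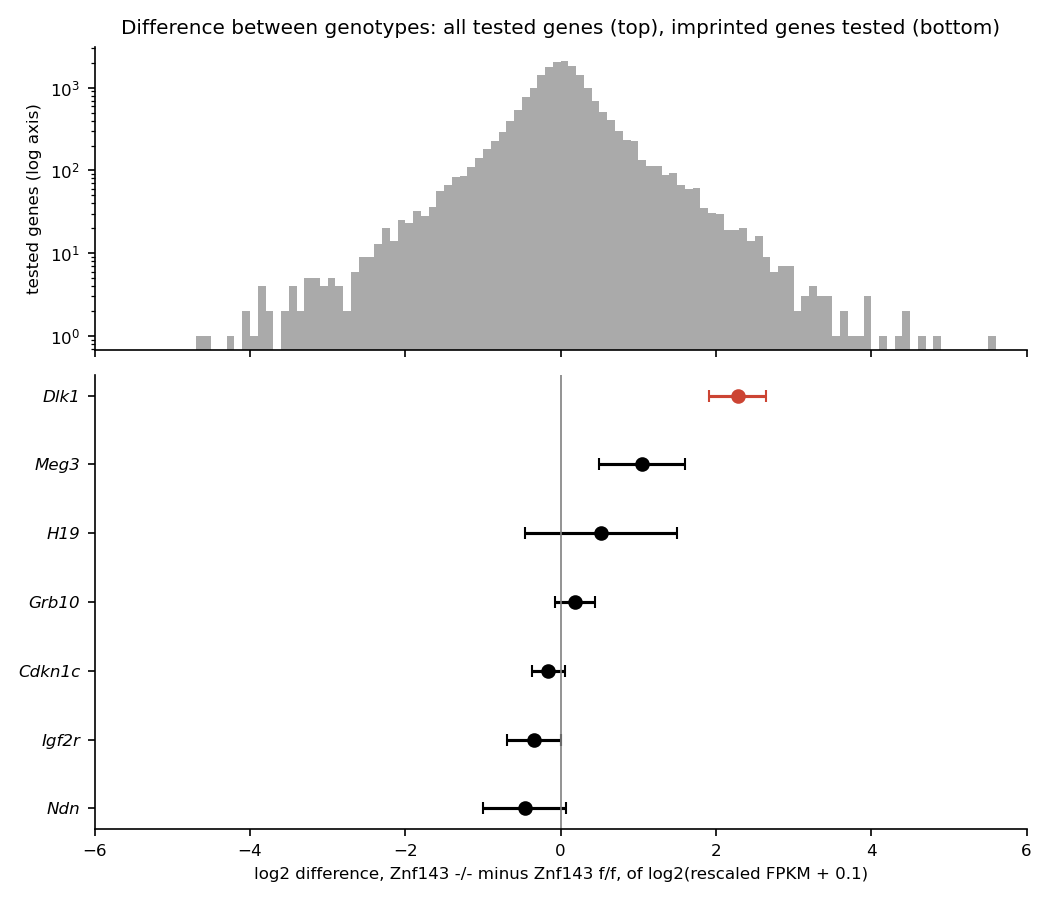
Difference of log2(rescaled FPKM + 0.1), *Znf143* -/- minus *Znf143* f/f (horizontal axis), over all 19206 tested genes as a histogram (top, log vertical axis) and for the 7 imprinted genes tested, with 95% intervals (bottom). *Dlk1*, in red, is the only 1 with an adjusted p under 0.05, and its interval runs from 1.92 to 2.64.

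Other imprinted genes were looked at from a list of 53. In the table were 40, of which 32 were tested, none was called higher, 1 was lower and 31 were not called. *Sgce*, which encodes epsilon-sarcoglycan from the paternal allele, fell from 5.31 ± 0.36 to 3.17 ± 0.15 rescaled FPKM (SD, n = 3, log2 difference -0.73 ± 0.10 SE, adjusted p = 0.0141). Its call was lost without WT1 (adjusted p = 0.0522), WT3 (0.0840), KO2 (0.0721) or KO3 (0.0882). *Peg10*, its neighbour under the same control region, had 24, 17 and 29 fragments in WT1 to WT3 and 0, 1 and 3 in KO1 to KO3. Its level was 0.0789 ± 0.0249 and 0.00348 ± 0.00377 rescaled FPKM, with all *Znf143* -/- libraries below the controls. The mean of *Peg10* was under the minimum for the test. Without that minimum, limma gave a log2 difference of -0.78 ± 0.18 SE and an adjusted p of 0.0584 among 23116 genes.

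Of imprinted genes that share a locus with the 10, those around *Cdkn1c* were the best expressed. *Cd81*, a tetraspanin, had 179 ± 5 and 137 ± 11 rescaled FPKM (adjusted p = 0.0630), and *Tssc4* had 55.2 ± 4.7 and 41.3 ± 1.9 (adjusted p = 0.0501, and 0.0305 without WT2). *Phlda2*, a growth restrainer of the placenta, had 30.1 ± 4.9 and 21.2 ± 7.1 (adjusted p = 0.223). *Slc22a18* had 12.3 ± 2.0 and 11.5 ± 1.3 (adjusted p = 0.761), *Osbpl5* 0.933 ± 0.195 and 1.13 ± 0.20 (0.534), and the non-coding *Kcnq1ot1*, which silences the domain on the paternal allele, 2.63 ± 0.30 and 2.00 ± 0.22 (0.173). *Ascl2*, a transcription factor of the placenta that is expressed from the maternal allele, lay lower in level and was 2.87-fold higher in *Znf143* -/- cells, with no overlap (0.528, 0.231 and 0.528 rescaled FPKM in WT1 to WT3, 0.809, 1.496 and 1.38 in KO1 to KO3). Its log2 difference was 1.35 ± 0.35 SE (adjusted p = 0.0730, and 0.00260 to 0.422 over 16 alternatives, under 0.05 in 2, without KO1 and without both WT2 and KO1). None of them passed the test.

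Beside *Ndn*, *Snrpn* had 3.68 ± 0.83 and 4.34 ± 0.40 rescaled FPKM (adjusted p = 0.434), *Ube3a* 4.002 ± 0.077 and 3.33 ± 0.17 (0.180), and *Peg12* 2.53 ± 0.41 and 2.10 ± 0.07 (0.354). Beside *Igf2r*, *Slc22a3* had 8.97 ± 0.35 and 10.2 ± 0.7 (adjusted p = 0.299). The genes were also split by the allele listed as expressed where the gene is imprinted. That allele was not measured here, and a gene imprinted in other tissues may not be imprinted in these cells. By this list, 21 maternal genes were tested with 0 calls and a median log2 difference of -0.02. The 18 paternal genes had 1 higher, *Dlk1*, and 1 lower, *Sgce*, and a median of -0.23.

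**Figure D4:**
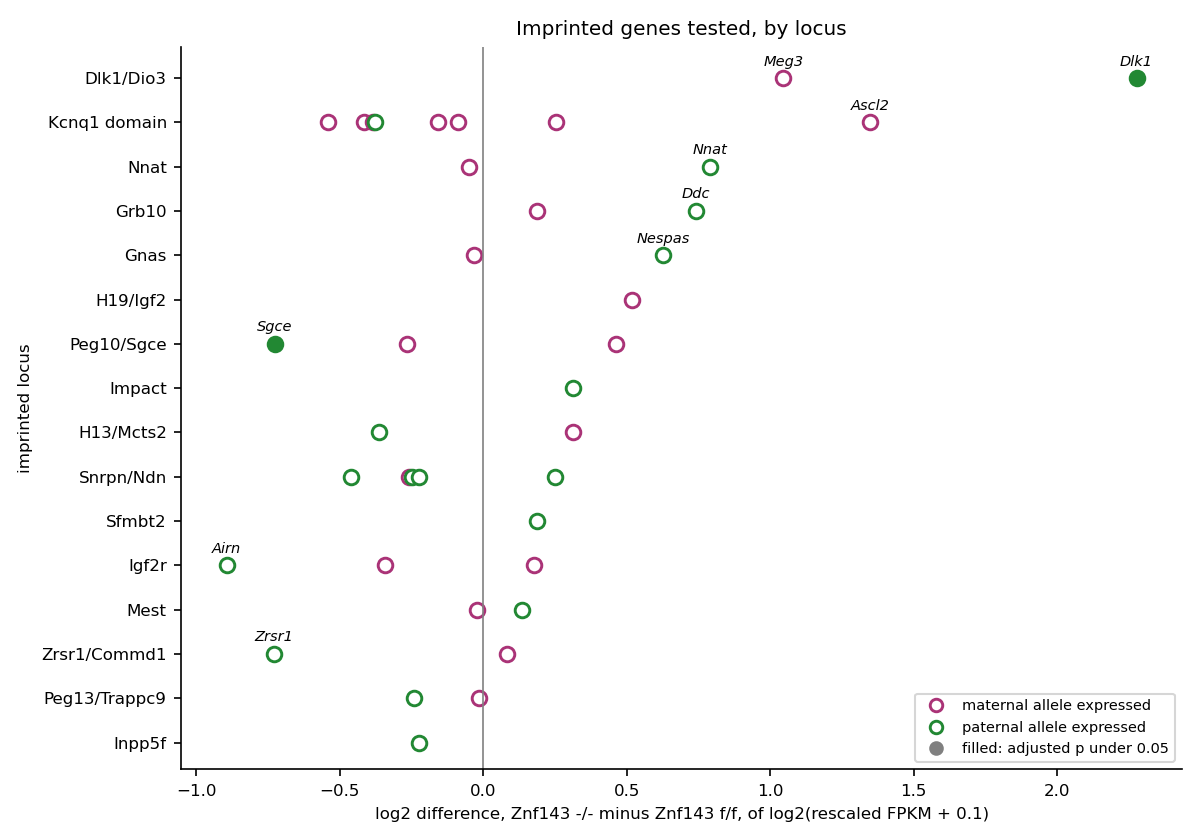
Difference of log2(rescaled FPKM + 0.1), *Znf143* -/- minus *Znf143* f/f (horizontal axis), of the 39 imprinted genes tested, by locus (vertical axis). Points are coloured by the allele listed as expressed, which was not measured in these cells, and filled where the adjusted p was under 0.05. *Dlk1* at 2.28 and *Sgce* at -0.73 are filled, and names are given for genes beyond 0.6 in either direction.

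For the other 5 tested genes of the 10, the most like imprinted gene over the 6 libraries, of 38 compared, was *Osbpl5* for *H19* (Pearson r = 0.85), *Tssc4* for *Igf2r* (0.90), *Inpp5f* for *Cdkn1c* (0.80), *Mcts2* for *Ndn* (0.96) and *Asb4* for *Grb10* (0.91). These correlations are descriptions over 6 libraries of both genotypes, in which WT1 with WT3 and KO2 with KO3 are nearly alike.

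Of 17 factors that maintain imprints or insulate imprinted loci, 15 were tested, none was called higher, 1 was lower and 14 were not called. *Smc1a*, a cohesin subunit that holds CTCF loops, had 36.17 ± 1.28 and 26.96 ± 0.92 rescaled FPKM (SD, n = 3, log2 difference -0.42 ± 0.07 SE, adjusted p = 0.0257). Its call was lost without WT1 (adjusted p = 0.119), WT3 (0.142), KO2 (0.115) or KO3 (0.152). *Dnmt1*, the methyltransferase that copies imprints at replication, had 22.7 ± 3.3 and 20.1 ± 1.1 (adjusted p = 0.453), and *Trim28*, a corepressor that protects them, 66.7 ± 10.4 and 62.0 ± 2.5 (0.709). In 2 of the 15 all *Znf143* -/- libraries lay above the controls and in 5 below, against 15.4% and 15.3% of all tested genes. Of these, *Smchd1* was lower (log2 difference -0.43 ± 0.10 SE, adjusted p = 0.0586 by limma) and *Zfp57* higher (0.56 ± 0.21 SE, adjusted p = 0.174), neither of them called.

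Markers of progenitors moved with the genotype. Of 3 multipotent progenitor markers, 2 were higher, *Flt3* 3.05-fold and *Cd48* 1.97-fold (adjusted p = 0.000414 and 0.00306 by limma), and the summed level of the list was 42.9 to 46.2 rescaled FPKM in *Znf143* f/f and 63.1 to 64.8 in *Znf143* -/- libraries. Of 10 stem cell markers, *Ly6a* was 2.18-fold higher, *Mecom* was lower (log2 difference -0.55 ± 0.09 SE, adjusted p = 0.0208) and 8 were not called (sums 473 to 528 and 743 to 788, most of it *Ly6a*). Of the lymphoid markers, *Dntt* was higher (0.203 ± 0.177 and 7.28 ± 0.44), while *Cd79a* and *Cd3e* were under the minimum for the test. Of 4 myeloid markers tested, *Elane* and *S100a8* were higher (list sums 20.1 to 40.0 and 69.7 to 80.9). The calls of *Mecom*, *Elane* and *S100a8* were lost without WT1, WT3, KO2 or KO3 (adjusted p of 0.0913 to 0.129, 0.0542 to 0.121 and 0.107 to 0.148), and that of *S100a8* also without KO1 (0.0708). In bulk RNA, a change in the share of a cell type and a change of RNA per cell cannot be told apart. The part of these markers in the difference of *Dlk1*, *Meg3* and *Rian* was not tested.

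Stromal cells of the marrow can express imprinted genes too. Whether the lineage depletion and the sort for LSK+ CD150+ CD48- cells removed all of them was not tested. Of 9 stromal markers, 4 were tested and none was called by limma. Their summed levels were 3.07 to 3.85 rescaled FPKM in *Znf143* f/f and 1.73 to 5.06 in *Znf143* -/- libraries, which overlapped. *Col1a2* had 1.47 ± 0.62 and 1.53 ± 0.70 rescaled FPKM (SD, n = 3), *Pdgfrb* 0.762 ± 0.138 and 1.13 ± 0.44, and *Col1a1* 0.319 ± 0.090 in the controls and 0, 1.19 and 0.955 in KO1 to KO3. *Dcn* had 0.712 ± 0.389 and 0.279 ± 0.063, with all *Znf143* -/- libraries below the controls (adjusted p = 0.148). *Cxcl12*, *Lepr* and *Pdgfra* had means under 0.1 in both genotypes. The part of these markers in the difference of *Dlk1* was not tested. Of 3 endothelial markers, 2 were tested and none was called (sums 1.06 to 1.60 and 1.39 to 1.79). Of 4 erythroid markers, 1 was lower, *Hbb-bt* (sums 23.1 to 37.0 and 21.1 to 24.5), and its call was lost without WT1, WT3, KO2 or KO3 (adjusted p of 0.0867 to 0.124). None of 3 megakaryocyte markers was called, although in all 3 the *Znf143* -/- libraries lay above the controls (sums 396 to 486 and 516 to 835).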

How the data were processed

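RNA-seq of HSLAM cells (3 *Znf143* f/f and 3 *Znf143* -/- libraries) was analysed, and the ChIP-seq and HiC samples were not analysed here. Groups came from the labels. The imprinted genes and all gene lists were chosen with earlier results of these data known. Libraries were made with SMART-Seq v4 and Nextera XT, which do not keep the strand.

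The authors used TrimGalore for trimming of the paired-end reads, STAR for alignment to GRCm38 (mm10) and FeatureCounts for counting of fragments. They deposited the FPKM of each library and gene lengths, and columns of their own comparison (mean count, fold change, test statistic and p-values), which were not used. Fragments were recovered from FPKM times length: 138677 of 138696 values lay within 0.05 of a whole number, and the other 19 lie in 6 genes. These fragments gave a median-of-ratios size factor for each library, by which it was rescaled. Coordinates came from GENCODE vM21 (GRCm38) and promoters from RefSeq (GRCm38.p6).

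Genes with a mean rescaled FPKM of at least 0.1 were tested with limma 3.58.1 (lmFit and eBayes with a variance trend) in R 4.3.3 on log2(rescaled FPKM + 0.1), with no block. Adjusted p-values are those of Benjamini and Hochberg. Two-sided exact permutation tests over libraries used scipy 1.17.1 in Python 3.11.15. Tested on simulated fragments of 19173 genes with 200 changed, the fit called 43% of 2-fold and 97% of 4-fold changes, and 7 of 147 calls were unchanged genes. Every simulated library was drawn independently, with the same dispersion for all genes. The real libraries differ from this, as WT1 with WT3 and KO2 with KO3 were nearly alike. These shares therefore do not give the power or the rate of false calls in the real data. Intervals cover the spread between libraries, and fragments without molecular identifiers are not independent molecules.

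Genes named are the 10, genes of the other lists that passed the test, imprinted genes that share a locus with the 10 and have a mean of at least 1, *Zfp143* and *Ctcf*, the most alike imprinted gene of each of the 10, and a few others that were chosen after their values were seen. A lymphoid marker is not reported here. Alternatives were the FPKM as deposited, each library divided by its own total, pseudocounts of 0.01 and 1, no filter, a mean of at least 1, limma's voom, no variance trend, the replicate number as a block, and each library left out. All mice were littermates per the methods. The paper names pairs of littermates but not which libraries form them, and the numbers of the libraries were not taken as pairs.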

Additional observations from a re-analysis of the deposited data

How the results depend on the processing

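*Dlk1* kept its direction in all 17 alternatives and an adjusted p under 0.05 in 16, with log2 differences of 1.39 (pseudocount 1) to 2.48 (voom). It lost the call with WT1 and WT3 averaged and KO2 and KO3 averaged (2.29, adjusted p = 0.062), where 0 of the 10 genes, 0 other imprinted genes and 47 of all genes were called. No other of the 7 genes changed direction, and *Cdkn1c*, *Grb10* and *H19* passed in none. Of the 10 genes, 2 (*Dlk1* and *Meg3*) were called without a filter, without the variance trend, with each library divided by its own total, with a pseudocount of 1 and with voom, and 4 (with *Igf2r* and *Ndn*) with WT2 and KO1 both left out, where 14 other imprinted genes and 8100 of all genes were called.

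Of the other imprinted genes, 0 were called with FPKM as deposited, 2 with a mean of at least 1, without a filter or with a pseudocount of 1, and 3 with voom. With each library left out, 1 to 2 of the 10, 0 to 3 of the others and 224 to 2268 of all genes were called, 224 without KO3, 260 without WT3, 351 without KO2, 371 without WT1, 2102 without KO1 and 2268 without WT2. The median log2 difference of those of the 10 that were tested was 0.30 with FPKM as deposited, where the median of all genes was 0.11, 0.11 to 0.54 with each library left out, and -0.16 with a mean of at least 1, which leaves out *Meg3* and *H19*.

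With the replicate block, 186 genes were called, *Dlk1* among them (2.28, adjusted p = 0.0247), and 0 other imprinted genes. Deviations from the genotype means correlated at -0.19 between WT1 and KO1, -0.17 between WT2 and KO2 and 0.14 between WT3 and KO3, and at 0.20 between WT1 and KO2 and 0.17 between WT2 and KO1. Not every library correlated best with its own number, so that the numbers may not pair the libraries. Low depth limits *Igf2* and *Peg3*, at 10 fragments or fewer in every library.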
